A study of Homo sapiens with 20 samples.

Results

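The amino acid transporter families SLC1, SLC3, SLC6, SLC7, SLC36, SLC38 and SLC43 were followed across depletion of APC, beta-catenin and TAZ in MII cells. The members were all genes named SLC1A, SLC3A, SLC6A, SLC7A, SLC36A, SLC38A or SLC43A plus a number, without antisense genes and pseudogenes. Each gene was represented by 1 probe set, the one with the highest mean over the 20 arrays. This gave 56 members among 19775 genes tested: 7 of SLC1, 2 of SLC3, 18 of SLC6, 13 of SLC7, 2 of SLC36, 11 of SLC38 and 3 of SLC43.

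All 20 samples came from MII cells, the labels' name for MCF10-T1k, a human line of mammary epithelium transformed with RAS. Cells were transfected by lipofection with siRNA against APC and TAZ (siAPC/siTAZ), against APC alone (siAPC), against beta-catenin and TAZ (sibcat/siTAZ), against beta-catenin alone (sibcat), or with the siGFP control. They were harvested from normal culture in medium with horse serum, insulin, EGF, hydrocortisone and cholera toxin, and total RNA was hybridised to Affymetrix HG-U133 Plus 2.0 arrays. The series title names TAZ as a mediator of Wnt signaling as its subject. Every group held 4 arrays, labelled biological replicates A to D. Whether these came from separate cultures is not stated, and the p-values cover the spread among the arrays, which may be technical. No group received TAZ siRNA alone, and 1 cell line with 5 siRNA conditions is all that the design covers.

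Amino acids cross the plasma membrane on carriers that differ in substrate and driving force. SLC1 and most SLC6 and SLC38 carriers use the sodium gradient, some SLC36 carriers use protons, and SLC43 carriers are facilitative. SLC7 light chains work as exchangers bound to a heavy chain, SLC3A2 or SLC3A1, while the cationic carriers of SLC7 work without one. Several of these genes are known targets of ATF4, the transcription factor that is translated when amino acids run short, and it acts with C/EBP proteins at composite response elements. APC belongs to the complex that marks beta-catenin for destruction, and TAZ, encoded by WWTR1, is a co-activator that binds TEAD transcription factors.

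The promoters of 4 members are shown because their changes differ in the results that follow and because each holds a core of the C/EBP-ATF response element, written TGATGNAA and searched on both strands. The windows run from 250 bases before to 50 bases after an annotated transcript start, on the strand of the gene, from RefSeq on GRCh38.p14. Capitals mark the match. SLC1A4 lies at chr2:64989149-64989448 on the plus strand, SLC3A2 at chr11:62881449-62881748 on the plus strand, SLC7A1 at chr13:29595639-29595938 on the minus strand and SLC38A1 at chr12:46266467-46266766 on the minus strand.
SLC1A4: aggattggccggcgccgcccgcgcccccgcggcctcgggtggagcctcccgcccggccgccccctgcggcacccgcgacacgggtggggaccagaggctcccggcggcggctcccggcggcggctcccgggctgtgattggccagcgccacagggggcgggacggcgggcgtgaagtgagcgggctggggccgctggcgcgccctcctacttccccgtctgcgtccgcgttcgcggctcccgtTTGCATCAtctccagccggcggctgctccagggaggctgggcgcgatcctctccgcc
SLC3A2: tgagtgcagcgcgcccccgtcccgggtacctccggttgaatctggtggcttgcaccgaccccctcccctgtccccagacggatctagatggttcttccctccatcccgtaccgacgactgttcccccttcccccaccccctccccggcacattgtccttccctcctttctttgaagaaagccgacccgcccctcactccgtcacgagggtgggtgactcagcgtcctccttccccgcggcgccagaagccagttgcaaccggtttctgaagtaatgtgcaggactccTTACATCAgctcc
SLC7A1: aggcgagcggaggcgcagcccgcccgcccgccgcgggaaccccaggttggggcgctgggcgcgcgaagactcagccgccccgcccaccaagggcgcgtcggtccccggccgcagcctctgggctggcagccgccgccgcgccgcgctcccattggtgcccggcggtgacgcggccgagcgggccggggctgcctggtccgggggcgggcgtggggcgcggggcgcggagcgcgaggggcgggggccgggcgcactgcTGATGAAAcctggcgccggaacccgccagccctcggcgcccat
SLC38A1: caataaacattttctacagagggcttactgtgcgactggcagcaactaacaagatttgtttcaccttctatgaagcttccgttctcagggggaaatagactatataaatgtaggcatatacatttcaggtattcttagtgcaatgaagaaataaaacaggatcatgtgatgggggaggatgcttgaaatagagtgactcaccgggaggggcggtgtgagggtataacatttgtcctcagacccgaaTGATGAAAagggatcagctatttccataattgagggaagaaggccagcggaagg
The match in SLC1A4 spans positions -7 to 1 and that in SLC3A2 positions 38 to 45, both on the opposite strand. In SLC38A1 it spans -4 to 4 and in SLC7A1 8 to 15, on the strand of the gene.

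A window was found for 42 of the 56 members, which had 64 windows in all, and the other 14 include SLC7A11, SLC6A15, SLC43A3 and SLC7A2. TGATGNAA occurred in 6 of these 42 members (14.3%), which also include SLC1A3 and SLC1A5, against 4.46% of 27305 genes with a window. By window the shares were 9.38% of 64 against 3.62% of 35116. GGAATG, the TEAD motif, occurred in 7 of 42 members (16.7%) and in 16.7% of all genes, and the TCF/LEF motif CTTTGAT in 0 of 42 against 3.18%. In no window did matches of different motifs overlap. A match describes the letters in a window and is not a measured binding site.

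Values are log2 signals, deposited after RMA, and a difference of 1 is a change of 1 on that log2 scale. Differences were tested with limma across all 20 arrays with Benjamini-Hochberg adjustment over the 19775 genes, and "called" means an adjusted p under 0.05. Signals of different genes are not set against each other because probe sets differ in affinity. The siRNA targets were read first. WWTR1 averaged 7.98 in siAPC/siTAZ cells against 10.64 in siAPC cells, and 8.41 in sibcat/siTAZ cells against 10.62 in sibcat cells. It was already lower in siAPC and sibcat cells than in siGFP cells, at 11.06. APC fell by 0.88 in siAPC cells and CTNNB1, which encodes beta-catenin, fell by 1.34 in sibcat cells, each relative to siGFP cells. CTNNB1 was a further 1.41 lower in sibcat/siTAZ than in sibcat cells, and APC a further 0.46 lower in siAPC/siTAZ than in siAPC cells, so added TAZ siRNA and deeper depletion of the first target cannot be told apart.

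Array medians lay between 5.07 and 5.11, and arrays of 1 group correlated at 0.9964 to 0.9977. All 8 measured genes of 10 in a mammary epithelial list had group means above 6.157, the median gene. Of these, 6 were lower in siAPC and 6 in sibcat than in siGFP cells (75.0% each, median changes -0.43 and -0.65). Over all genes 18.7% and 15.7% fell. The other 2, KRT8 and KRT18, were called higher, by 0.56 and 0.37 in siAPC and by 0.34 and 0.20 in sibcat cells. In each combined depletion 7 were lower than in siGFP cells (87.5% each, -0.78 with siAPC/siTAZ and -0.71 with sibcat/siTAZ). Over all genes 24.3% and 19.5% fell there. KRT5 was called 0.41 higher in siAPC/siTAZ cells and was not called in sibcat/siTAZ cells. The part of these changes in the results was not tested. The 3'-to-5' difference of the ACTB control probes, a reading of RNA length, was 1.87 to 2.07 in siAPC/siTAZ, 1.54 to 1.60 in siAPC, 1.98 to 2.12 in sibcat/siTAZ, 1.76 to 1.87 in sibcat and 1.78 to 1.92 in siGFP arrays. It was thus higher with added TAZ siRNA in both backgrounds, and its part in the results was not tested. The summed linear signal of 9 fibroblast markers was also higher with TAZ siRNA, at 9764 to 10085 in siAPC/siTAZ against 3608 to 3759 in siAPC arrays. It was 9172 to 9848 in sibcat/siTAZ against 4747 to 5044 in sibcat arrays, and 6431 to 6956 in siGFP arrays. COL1A1, COL3A1 and DCN carried this, while the fibroblast marker LUM stayed between 2.75 and 2.88 and PDGFRA between 3.81 and 3.93 in group means. PDGFRB was called lower with TAZ siRNA in siAPC, by 0.43. Of the 9 genes, TAZ siRNA raised 5 and lowered 1 in siAPC, and raised 3 and lowered 0 in sibcat. The rises were 55.6% and 33.3% of the list, beside 20.7% and 18.0% of all genes. The leukocyte sum over 7 of 9 genes was 188 to 193 in siAPC/siTAZ, 163 to 186 in siAPC, 408 to 450 in sibcat/siTAZ, 322 to 354 in sibcat and 362 to 386 in siGFP arrays, with PTPRC at 2.67 to 2.73 in group means. CD14 carried these differences, with group means of 5.68, 5.13, 8.16, 7.60 and 7.83 in that order. The endothelial sum over 7 genes was 156 to 167, 137 to 161, 209 to 220, 209 to 219 and 207 to 243 in the same order, with CDH5 at 2.97 to 3.18. PECAM1 alone had group means of 5.74, 5.24, 6.73, 6.65 and 6.55 in that order. In bulk RNA, fewer cells of a type and less RNA per cell cannot be told apart.

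Depletion of APC raised 16 members and lowered 8 of 56 relative to siGFP cells (28.6% and 14.3%), where 21.3% of all genes rose and 18.7% fell. After depletion of beta-catenin 18 members rose and 5 fell (32.1% and 8.93%), against 21.4% and 15.7% of all genes. Rises thus made up a larger share, and falls a smaller one, among members than among all genes in both comparisons, which share the siGFP arrays. With the mean of all probe sets of a gene the rises were 12 and 14 members (21.4% and 25.0%), beside 19.4% and 19.5% of all genes, so the excess in siAPC was then small. The median member changed by 0.05 in siAPC and 0.03 in sibcat cells, the median gene by -0.003 and 0.000. Adding TAZ siRNA to siAPC raised 11 members and lowered 12 (19.6% and 21.4%), where 20.7% of all genes rose and 22.8% fell. Added to sibcat it raised 10 and lowered 9 (17.9% and 16.1%), where 18.0% and 13.7% of all genes did. Median changes with TAZ siRNA were -0.05 for members and -0.03 for all genes in siAPC, and 0.00 and 0.01 in sibcat. The member shares under TAZ siRNA were near those of all genes.

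**Figure D1:**
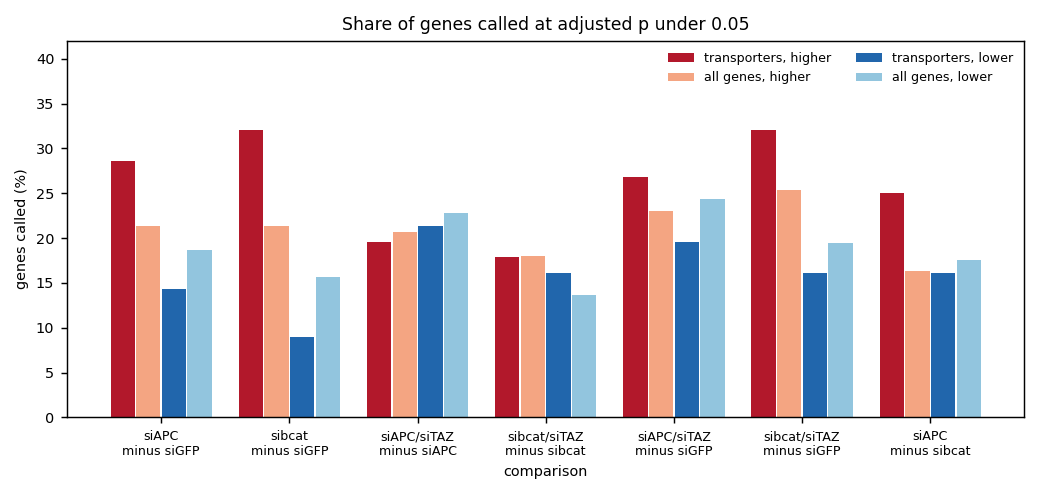
Share of genes called higher or lower (percent, vertical axis from 0) in 7 comparisons, for the 56 transporters (dark bars) and all 19775 genes tested (light bars). In siAPC against siGFP cells 28.6% of transporters and 21.3% of all genes rose, and in sibcat against siGFP cells 32.1% and 21.4%.

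The cystine and glutamate exchanger and its partners rose with both single depletions. SLC7A11, the light chain that imports cystine for glutathione synthesis, read 9.65, 9.70, 9.63 and 9.69 in the 4 siAPC/siTAZ arrays and 9.87, 9.91, 9.82 and 9.87 in the siAPC arrays. It read 8.69, 8.52, 8.60 and 8.40 in sibcat/siTAZ, 9.36, 9.31, 9.35 and 9.33 in sibcat, and 8.46, 8.41, 8.52 and 8.52 in siGFP arrays. The siAPC arrays were the highest and sibcat arrays stood apart from siGFP arrays, while sibcat/siTAZ and siGFP arrays overlapped. The log2 change was 1.39 ± 0.05 (SE) in siAPC over siGFP cells, a 2.62-fold rise (limma adjusted p = 1.19e-14), and 0.86 ± 0.05 in sibcat over siGFP cells (adjusted p = 3.01e-11). Added TAZ siRNA lowered it by 0.20 in siAPC/siTAZ relative to siAPC cells (adjusted p = 0.00216) and by 0.79 in sibcat/siTAZ relative to sibcat cells (adjusted p = 1.21e-10). The difference between these TAZ siRNA effects was 0.59 ± 0.07 (adjusted p = 1.91e-06). Of its other 2 probe sets, 1 gave the same pattern. In the other, the TAZ siRNA change was -0.52 in siAPC and -0.47 in sibcat backgrounds, with no called difference between them (adjusted p = 0.763 over all probe sets).

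SLC3A2, the heavy chain that carries SLC7A5, SLC7A6, SLC7A8 and SLC7A11 to the membrane, averaged 9.34 ± 0.07 in siAPC and 9.28 ± 0.14 in sibcat cells, against 8.83 ± 0.05 in siGFP cells (SD, n = 4 each). Its log2 change was 0.51 in siAPC and 0.45 in sibcat cells, both called and with no overlap of arrays with siGFP. With TAZ siRNA it was 0.24 lower in siAPC/siTAZ than in siAPC cells (adjusted p = 0.00586). In sibcat/siTAZ cells the difference from sibcat cells was -0.12 (95% interval -0.26 to 0.02) and was not called. SLC7A6, which exchanges cationic for neutral amino acids, averaged 8.75 in siAPC, 8.62 in sibcat and 7.93 in siGFP cells, and rose by 0.82 and 0.70. TAZ siRNA lowered it by 0.30 (to 8.45 in siAPC/siTAZ) and by 0.16 (to 8.46 in sibcat/siTAZ), which left both above siGFP cells. The fall in siAPC/siTAZ depended on the probe set used. The other probe sets of SLC7A6 rose in both single depletions, but changed by -0.010 and -0.027 with TAZ siRNA in siAPC, not called. In sibcat they changed by -0.145 and -0.138, and only the latter was called (adjusted p = 0.0398 over all probe sets).

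SLC7A5, the exchanger for large neutral amino acids, followed neither of these. It averaged 11.03 in siAPC/siTAZ and 11.03 in siAPC cells, 11.33 in sibcat/siTAZ and 11.23 in sibcat cells, and 10.93 in siGFP cells. Only the rise in sibcat over siGFP cells, 0.30 (adjusted p = 0.000158), was called among the 4 comparisons of a depletion with its own baseline. In siAPC the difference from siGFP was 0.11 (95% interval -0.01 to 0.22). The TAZ siRNA difference in sibcat was 0.10 and not called, but 0.17 and called (adjusted p = 0.00643) without sibcat array D, which read 11.42 beside 11.12 to 11.23. SLC7A8, a second exchanger for neutral amino acids, rose by 0.60 in siAPC over siGFP cells and by a further 0.39 in siAPC/siTAZ over siAPC cells, to 7.64 against 7.25. In 1 of its 5 probe sets the call went the other way in the TAZ siRNA comparison, at -0.26. Among all 8 light chains, 4 rose in siAPC and 3 in sibcat relative to siGFP cells and none fell, and TAZ siRNA lowered 2 in each background and raised 1 in siAPC. Beside the rises stand 21.3% and 21.4% of all genes, and beside the falls with TAZ siRNA, 25.0% of the light chains in each background, stand 22.8% and 13.7%.

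**Figure D2:**
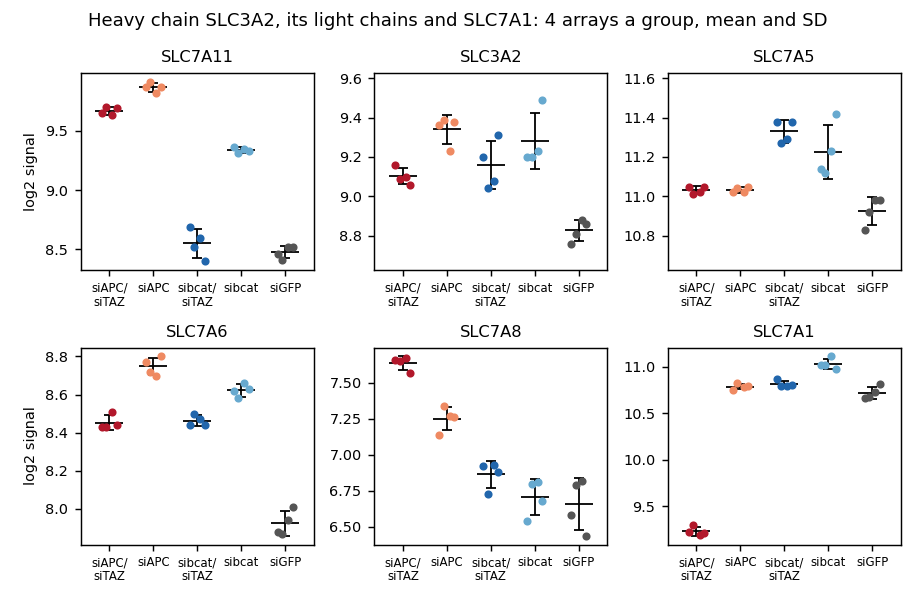
Log2 signal (vertical axis, scaled to each gene) of SLC7A11, SLC3A2, SLC7A5, SLC7A6, SLC7A8 and SLC7A1 in the 4 arrays of each group (points), with mean and SD (lines). SLC7A11 is highest in siAPC arrays, and SLC7A1 lies at 9.19 to 9.30 in siAPC/siTAZ arrays and at 10.66 or more in all other groups.

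Of the 5 cationic carriers and relatives in SLC7, SLC7A1 and SLC7A2 had TAZ siRNA effects that differed between the backgrounds. SLC7A1, a main carrier of arginine and lysine in many cells, read 9.22, 9.30, 9.19 and 9.21 in siAPC/siTAZ arrays against 10.75, 10.82, 10.78 and 10.79 in siAPC arrays. It read 10.87, 10.79, 10.79 and 10.80 in sibcat/siTAZ, 11.02, 11.02, 11.11 and 10.98 in sibcat, and 10.66, 10.67, 10.73 and 10.81 in siGFP arrays. All 4 siAPC/siTAZ arrays lay below the other 16. The fall in siAPC/siTAZ relative to siAPC cells was 1.56 ± 0.04 (2.94-fold, adjusted p = 1.67e-16), and that in sibcat/siTAZ relative to sibcat cells was 0.22 (adjusted p = 0.000284). The TAZ siRNA effects differed by -1.34 ± 0.06 (adjusted p = 3.49e-12). Of the other 4 probe sets of SLC7A1, 1 gave a smaller called difference of -0.63, and 1 gave 0.01 (adjusted p = 0.985 over all probe sets) with falls of 0.33 and 0.34 in the siAPC and sibcat backgrounds. SLC7A1 was 0.32 higher in sibcat than in siGFP cells and its difference of 0.07 in siAPC cells was not called. When the 5 probe sets of SLC7A1 were averaged, siAPC cells lay 0.09 below siGFP cells and were called, so no direction is given for that comparison.

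SLC7A2, an arginine carrier whose isoforms are known for supplying nitric oxide synthesis, read 4.40, 4.70, 5.24 and 4.94 in siAPC/siTAZ arrays against 6.00, 5.89, 5.98 and 6.21 in siAPC arrays. The groups did not overlap, and the fall was 1.20 ± 0.13 (adjusted p = 1.44e-07). The siAPC/siTAZ mean, 4.82, lay below the array medians, where changes are compressed by background. In sibcat/siTAZ cells it averaged 6.43 ± 0.10 against 6.30 ± 0.14 in sibcat cells (SD, n = 4 each), a difference of 0.13 that was not called. The TAZ siRNA effects differed by -1.33 ± 0.18 (adjusted p = 1e-05). SLC7A2 had risen by 0.43 in siAPC and 0.71 in sibcat cells over 5.59 in siGFP cells. Its other 2 probe sets stayed at or below 3.83 in all group means and were not called in these comparisons. Of the 5 cationic carriers and relatives in SLC7, 2 rose after either single depletion (40.0%, beside 21.3% of all genes in siAPC and 21.4% in sibcat). These were SLC7A2 with SLC7A4 in siAPC and SLC7A1 with SLC7A2 in sibcat. SLC7A4, a low member, rose by 0.21 in siAPC, and its other probe set was not called there (-0.07). With TAZ siRNA 2 fell in each background (40.0%, beside 22.8% and 13.7%), SLC7A1 with SLC7A2 in siAPC and SLC7A1 with SLC7A3 in sibcat. SLC7A3, a low member, fell by 0.21 in sibcat, and its siAPC difference of -0.08 was not called.

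In SLC1, the neutral exchanger SLC1A4, which carries alanine, serine and cysteine, read 6.24, 6.44, 6.25 and 6.10 in siAPC/siTAZ, 7.23, 7.41, 6.83 and 7.05 in siAPC, 6.31, 6.43, 6.32 and 6.35 in sibcat/siTAZ, 6.96, 6.91, 7.07 and 6.84 in sibcat, and 6.08, 6.23, 6.10 and 6.45 in siGFP arrays. The siAPC and sibcat arrays stood above those of the other 3 groups, which overlapped. It rose by 0.92 ± 0.10 in siAPC and by 0.73 ± 0.10 in sibcat over siGFP cells, and fell by 0.87 in siAPC/siTAZ relative to siAPC cells and by 0.59 in sibcat/siTAZ relative to sibcat cells, all called. Each combined depletion then differed from siGFP cells by 0.04 and 0.14, neither called. Since the single-depletion arrays enter both differences, the rise and the fall are not independent measurements. Its probe set is of a class that can read related sequences, and 2 others moved the same way in all 4 comparisons, by 1.34 and 1.13 in siAPC over siGFP cells. The first of these 2 stayed above siGFP cells by 0.152 in siAPC/siTAZ and 0.255 in sibcat/siTAZ, both called (adjusted p = 0.0444 and 0.00154 over all probe sets). In that probe set the TAZ siRNA effects also differed, by -0.34 (adjusted p = 0.00502 over all probe sets). SLC1A5, the main glutamine importer of many cancer lines, was called higher by 0.46 only in sibcat over siGFP cells among these comparisons. The TAZ siRNA differences of -0.19 in siAPC and -0.20 in sibcat backgrounds were not called, with 95% intervals of -0.36 to -0.01 and -0.37 to -0.02, and 4 of 7 alternative settings called the first of them and 3 of 7 the second. The second was also called without sibcat/siTAZ array A (-0.25, adjusted p = 0.0328).

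The glutamate carriers of SLC1 moved apart from each other. SLC1A3, known from glia as a glutamate and aspartate carrier, read 10.27, 10.20, 10.25 and 10.24 in siAPC/siTAZ against 8.91, 8.92, 8.88 and 8.90 in siAPC arrays, 8.37, 8.17, 8.16 and 8.16 in sibcat/siTAZ against 7.89, 7.88, 8.06 and 7.89 in sibcat arrays, and 8.78, 8.81, 8.88 and 8.84 in siGFP arrays. The siAPC and siGFP arrays met at 8.88, and no other groups overlapped. The rise with TAZ siRNA was 1.34 ± 0.05 in siAPC (2.53-fold, adjusted p = 1.98e-14) and 0.29 ± 0.05 in sibcat cells (adjusted p = 0.000117), and these effects differed by 1.05 ± 0.07 (adjusted p = 7.86e-10). Beta-catenin depletion alone lowered SLC1A3 by 0.90, whereas the siAPC difference of 0.08 from siGFP cells was not called. Its other probe set moved by 1.81 with TAZ siRNA in siAPC and by 0.17, not called, in sibcat, and with the 2 probe sets averaged the sibcat rise was 0.23 and not called (adjusted p = 0.0746).

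SLC1A1, the epithelial and neuronal carrier of glutamate and cysteine, moved the other way with TAZ siRNA. It averaged 6.67 ± 0.09 in siAPC/siTAZ and 7.69 ± 0.06 in siAPC cells, and 7.20 ± 0.07 in sibcat/siTAZ and 7.55 ± 0.06 in sibcat cells, with 7.35 ± 0.07 in siGFP cells (SD, n = 4 each). The falls were 1.03 in siAPC and 0.35 in sibcat backgrounds, and they differed by -0.68 ± 0.07 (adjusted p = 5.08e-07). SLC1A1 had risen by 0.345 in siAPC and 0.205 in sibcat over siGFP cells, both called. Its other probe set was called in 1 of these 4 comparisons, lower by 0.34 with TAZ siRNA in siAPC. Of the 5 glutamate carriers, the remaining SLC1A2, SLC1A6 and SLC1A7 were low throughout.

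The largest changes of any member were in SLC6A14, a carrier of neutral and cationic amino acids that is driven by sodium and chloride. Its arrays read 6.65, 6.62, 6.64 and 6.96 in siAPC/siTAZ, 5.20, 4.90, 5.60 and 5.20 in siAPC, 3.70, 4.14, 3.84 and 3.72 in sibcat/siTAZ, 4.18, 4.40, 4.17 and 3.86 in sibcat, and 9.65, 9.59, 9.43 and 9.43 in siGFP cells. The siGFP arrays lay far above all others, and sibcat/siTAZ and sibcat arrays overlapped at the bottom. SLC6A14 fell by 4.30 ± 0.13 in siAPC relative to siGFP cells (19.7-fold, adjusted p = 1.79e-15) and fell by 5.37 ± 0.13 in sibcat relative to siGFP cells (41.4-fold, adjusted p = 1.14e-16). Both sibcat groups, with means of 3.85 and 4.15, lay below the array medians, where folds are compressed by background. Adding TAZ siRNA raised it by 1.49 ± 0.13 in siAPC/siTAZ over siAPC cells (adjusted p = 1.35e-08). In sibcat/siTAZ the difference from sibcat cells was -0.30 (95% interval -0.58 to -0.02, adjusted p = 0.101). Without sibcat array D that difference was -0.40 and called (adjusted p = 0.0321), and likewise without sibcat/siTAZ array B. The TAZ siRNA effects differed by 1.80 ± 0.19 (adjusted p = 4.37e-07). SLC6A14 had 1 probe set.

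SLC6A15, a carrier of branched-chain amino acids and proline, read 9.76, 9.83, 9.71 and 9.93 in siAPC/siTAZ against 8.89, 8.79, 8.68 and 8.83 in siAPC arrays, and 10.55, 10.44, 10.52 and 10.60 in sibcat/siTAZ against 9.89, 9.82, 9.91 and 9.84 in sibcat arrays, with 9.88, 9.93, 10.05 and 10.08 in siGFP arrays. It fell by 1.19 ± 0.06 in siAPC relative to siGFP cells, while the sibcat difference of -0.12 was not called. TAZ siRNA raised it by 1.01 in siAPC and by 0.66 in sibcat backgrounds, all 4 arrays above their baseline in each, and the effects differed by 0.35 ± 0.08 (adjusted p = 0.00272). Among its 5 probe sets, 1 rose by 0.25 in siAPC over siGFP cells, against the direction of the one used. That probe set agreed on the rise with TAZ siRNA, by 0.53 in siAPC and 0.38 in sibcat cells.

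SLC6A16, an orphan member of SLC6, rose in all 4 comparisons. Its means were 6.90 ± 0.26 in siAPC/siTAZ, 5.74 ± 0.19 in siAPC, 5.48 ± 0.16 in sibcat/siTAZ, 4.96 ± 0.20 in sibcat and 4.50 ± 0.20 in siGFP cells (SD, n = 4 each). The rises were 1.25 in siAPC and 0.46 in sibcat over siGFP cells, and 1.16 and 0.52 with added TAZ siRNA. Its other probe set, at 4.57 or less in all group means, rose with TAZ siRNA in both backgrounds but was not called in siAPC (0.25) or sibcat (-0.12) against siGFP cells. Of the 10 amino acid carriers in SLC6, 1 rose and 3 fell in siAPC, 1 rose and 1 fell in sibcat, and TAZ siRNA raised 3 in siAPC and 2 in sibcat cells and lowered none. Counting both directions, 40.0%, 20.0%, 30.0% and 20.0% of them were called in these 4 comparisons, no larger a share than the 40.0%, 37.1%, 43.5% and 31.7% of all genes. Those raised in both backgrounds were SLC6A15 and SLC6A16.

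Among the SLC6 carriers of other substrates, the creatine carrier SLC6A8 fell at every step. It read 7.51, 7.48, 7.46 and 7.25 in siAPC/siTAZ, 8.26, 8.17, 8.22 and 8.23 in siAPC, 7.09, 6.94, 6.96 and 7.08 in sibcat/siTAZ, 7.66, 7.62, 7.81 and 7.92 in sibcat, and 8.88, 8.94, 9.01 and 8.96 in siGFP arrays. No 2 groups overlapped. The falls were 0.73 in siAPC and 1.20 in sibcat relative to siGFP cells, and 0.80 in siAPC/siTAZ relative to siAPC and 0.74 in sibcat/siTAZ relative to sibcat cells. The last pair differed by -0.06 (95% interval -0.25 to 0.13). All 3 probe sets fell in these comparisons, with the smallest siAPC change at -0.21. Other probe sets name both SLC6A8 and the SLC6A10P pseudogenes, and signal from those copies could not be separated.

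SLC6A6, the taurine carrier, averaged 9.32 ± 0.08 in siAPC/siTAZ, 9.09 ± 0.04 in siAPC, 10.18 ± 0.06 in sibcat/siTAZ, 9.80 ± 0.07 in sibcat and 9.66 ± 0.05 in siGFP cells (SD, n = 4 each). It fell by 0.57 in siAPC and rose by 0.13 in sibcat relative to siGFP cells, and rose with TAZ siRNA by 0.23 in siAPC and 0.39 in sibcat cells. In 1 of its 5 probe sets the call went the other way in siAPC/siTAZ relative to siAPC, at -0.39. Of the 8 carriers of transmitters, taurine and creatine, TAZ siRNA lowered 3 in siAPC and 2 in sibcat cells (37.5% and 25.0%, beside 22.8% and 13.7% of all genes) and raised 1 in each. Those lowered were SLC6A8 with the low members SLC6A3 and SLC6A11 in siAPC, and SLC6A8 with SLC6A11 in sibcat.

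**Figure D3:**
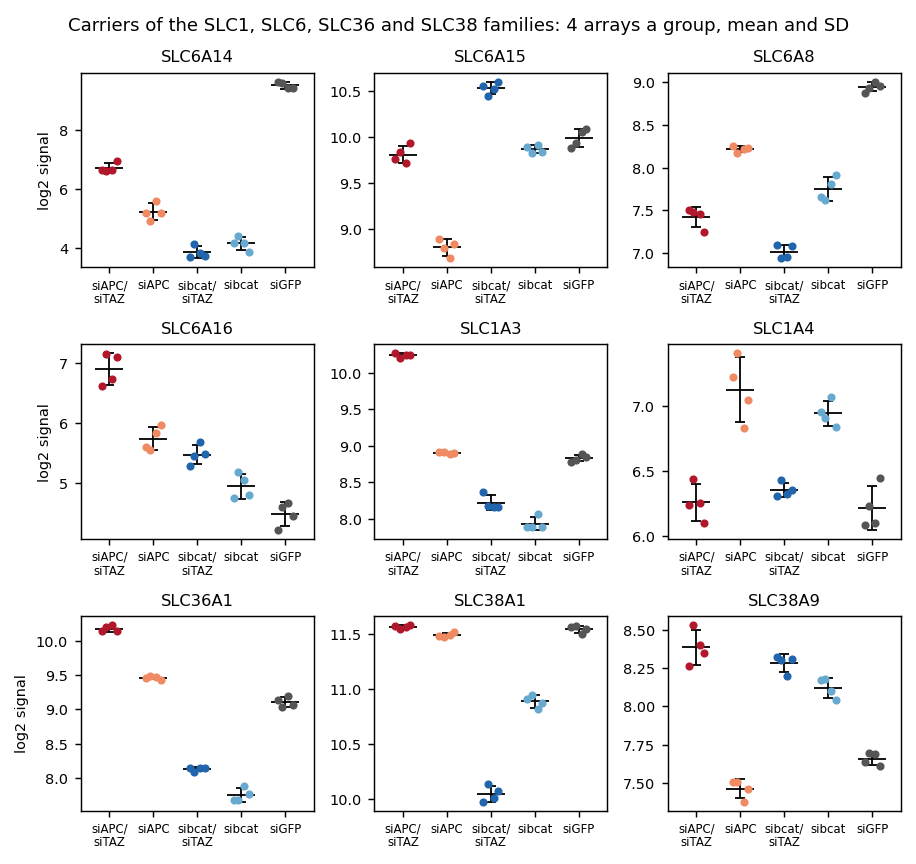
Log2 signal (vertical axis, scaled to each gene) of 9 carriers of SLC1, SLC6, SLC36 and SLC38 in the 4 arrays of each group (points), with mean and SD (lines). SLC6A14 is at 6.96 or less in all arrays but siGFP, which start at 9.43, and SLC38A1 is at 10.95 or less in the arrays with sibcat and at 11.47 or more in the rest.

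The proton-coupled carrier SLC36A1, which exports amino acids from lysosomes and takes them up at the surface of gut cells, separated the APC and beta-catenin backgrounds. It read 10.14, 10.20, 10.23 and 10.14 in siAPC/siTAZ, 9.45, 9.48, 9.47 and 9.43 in siAPC, 8.14, 8.09, 8.14 and 8.14 in sibcat/siTAZ, 7.68, 7.67, 7.88 and 7.77 in sibcat, and 9.13, 9.03, 9.19 and 9.07 in siGFP arrays. All 5 groups stood apart. It rose by 0.35 in siAPC and fell by 1.36 in sibcat (2.56-fold) relative to siGFP cells, and TAZ siRNA raised it by 0.72 in siAPC and by 0.38 in sibcat cells. In the direct comparison siAPC lay 1.71 ± 0.05 above sibcat cells (adjusted p = 6.83e-16). The other probe set of SLC36A1, at 5.25 or less in all group means, was called in none of these comparisons. It gave -0.12 in siAPC and -0.20 in sibcat against siGFP cells, and 0.08 in the direct comparison. SLC36A4, a carrier of proline and tryptophan, averaged 7.46 in siAPC against 8.04 in siGFP cells and fell by 0.58. In sibcat cells its difference of -0.12 was not called, and TAZ siRNA raised it by 0.19 in sibcat only, with a difference between the TAZ siRNA effects of -0.26 (adjusted p = 0.0056).

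SLC38A1, a sodium-coupled glutamine carrier, read 11.57, 11.54, 11.56 and 11.58 in siAPC/siTAZ, 11.48, 11.47, 11.49 and 11.52 in siAPC, and 11.56, 11.57, 11.50 and 11.54 in siGFP arrays. In sibcat/siTAZ it read 9.98, 10.14, 10.01 and 10.08, against 10.91, 10.95, 10.82 and 10.87 in sibcat arrays. The sibcat arrays lay below the first 3 groups, and sibcat/siTAZ arrays lower still. It fell by 0.66 ± 0.04 in sibcat relative to siGFP cells (adjusted p = 5.45e-11) and by 0.84 ± 0.04 in sibcat/siTAZ relative to sibcat cells (adjusted p = 1.38e-12). In siAPC the difference from siGFP cells was -0.05 (95% interval -0.13 to 0.03) and the TAZ siRNA difference 0.07 (95% interval -0.01 to 0.15). The TAZ siRNA difference was called when the values were quantile-normalized again (0.10) or the 4 probe sets averaged (0.13). The TAZ siRNA effects differed by 0.91 ± 0.06 (adjusted p = 2.44e-10). Another probe set of SLC38A1 was called 0.32 lower in siAPC than in siGFP cells (adjusted p = 0.00657 over all probe sets). It was also called 0.33 higher with TAZ siRNA in siAPC (adjusted p = 0.00455 over all probe sets). The remaining probe sets were called in neither comparison. CTNNB1 itself was 1.41 lower in sibcat/siTAZ than in sibcat cells, and the part of that in the further fall of SLC38A1 was not tested.

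SLC38A2, the glutamine and alanine carrier that is known to respond to amino acid supply, moved by at most 0.16 in any of these comparisons. It averaged 13.16 ± 0.05 in siAPC/siTAZ and 13.00 ± 0.02 in siAPC cells, a rise of 0.16 (adjusted p = 0.000446). The rise of 0.09 in sibcat over siGFP cells (adjusted p = 0.036) was lost when any 1 of the 4 siGFP arrays or sibcat array A or B was left out, with adjusted p from 0.0503 to 0.103. SLC38A9, the lysosomal arginine sensor that signals to mTORC1, averaged 8.39 ± 0.11 in siAPC/siTAZ against 7.47 ± 0.06 in siAPC cells, and 8.28 ± 0.06 in sibcat/siTAZ against 8.12 ± 0.07 in sibcat cells, with 7.66 ± 0.04 in siGFP cells (SD, n = 4 each). It fell by 0.20 in siAPC and rose by 0.46 in sibcat relative to siGFP cells. TAZ siRNA raised it by 0.92 in siAPC and 0.16 in sibcat backgrounds, and the effects differed by 0.76 ± 0.08 (adjusted p = 1.67e-07). Of the 11 SLC38 members, 4 rose and 1 fell in siAPC, 5 rose and 1 fell in sibcat, and TAZ siRNA raised 3 in each background and lowered 1, SLC38A1, in sibcat. Rises were 36.4% and 45.5% of the family after the single depletions, beside 21.3% and 21.4% of all genes, and 27.3% in each background with TAZ siRNA, beside 20.7% and 18.0%.

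In SLC43, the purine nucleobase carrier SLC43A3 read 8.62, 8.55, 8.53 and 8.52 in siAPC/siTAZ against 9.53, 9.55, 9.49 and 9.57 in siAPC arrays. It averaged 10.04 ± 0.04 in sibcat/siTAZ and 10.05 ± 0.07 in sibcat cells, and 9.78 ± 0.08 in siGFP cells (SD, n = 4 each). The fall with TAZ siRNA was 0.98 ± 0.05 in siAPC, and the sibcat difference was -0.01 (95% interval -0.11 to 0.09). These effects differed by -0.97 ± 0.06 (adjusted p = 7.62e-10). SLC43A2, a facilitative carrier of large neutral amino acids, is named here after its values were seen. It averaged 7.15 in siAPC/siTAZ against 6.28 in siAPC cells, and 6.63 in sibcat/siTAZ against 6.39 in sibcat cells, rises of 0.87 and 0.24. Its other probe set rose by 0.35 and 0.33, with a difference of 0.03 that was not called (adjusted p = 0.935 over all probe sets), and by 0.73 in siAPC over siGFP cells, where the probe set used gave 0.07, not called.

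**Figure D4:**
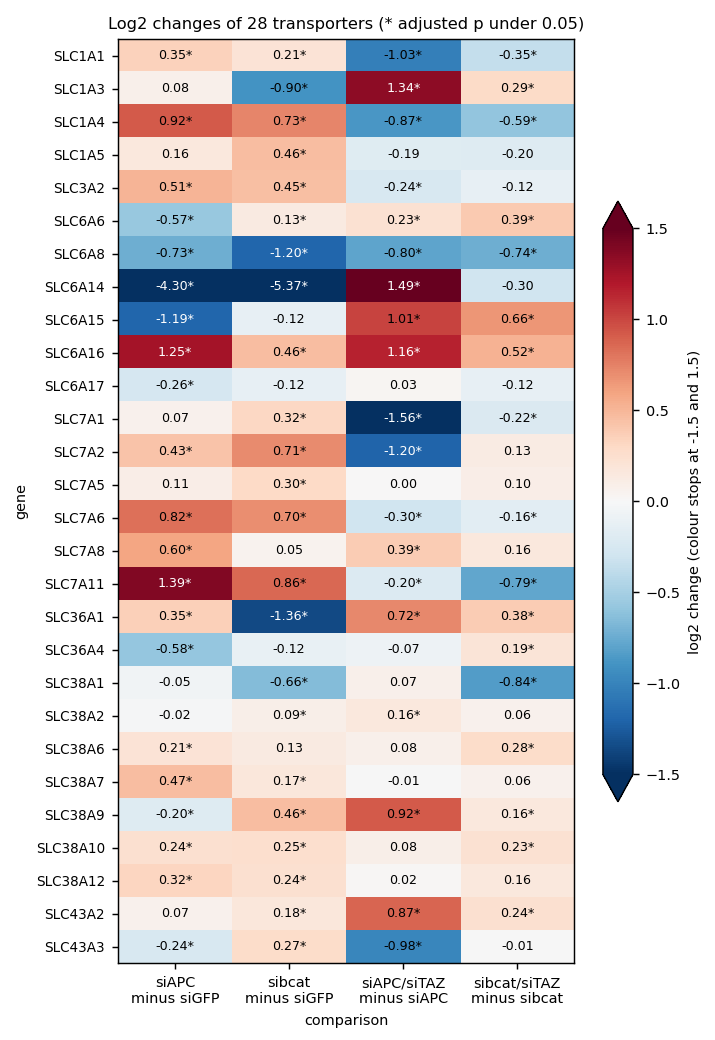
Log2 change (colour and printed value) in 4 comparisons (columns) for the 28 members (rows) with at least 1 group mean above the median gene, with an asterisk for adjusted p under 0.05. SLC1A1, SLC1A4, SLC7A6 and SLC7A11 are higher in siAPC and sibcat than in siGFP cells and lower with added TAZ siRNA, and SLC6A8 is lower in all 4.

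**Figure D5:**
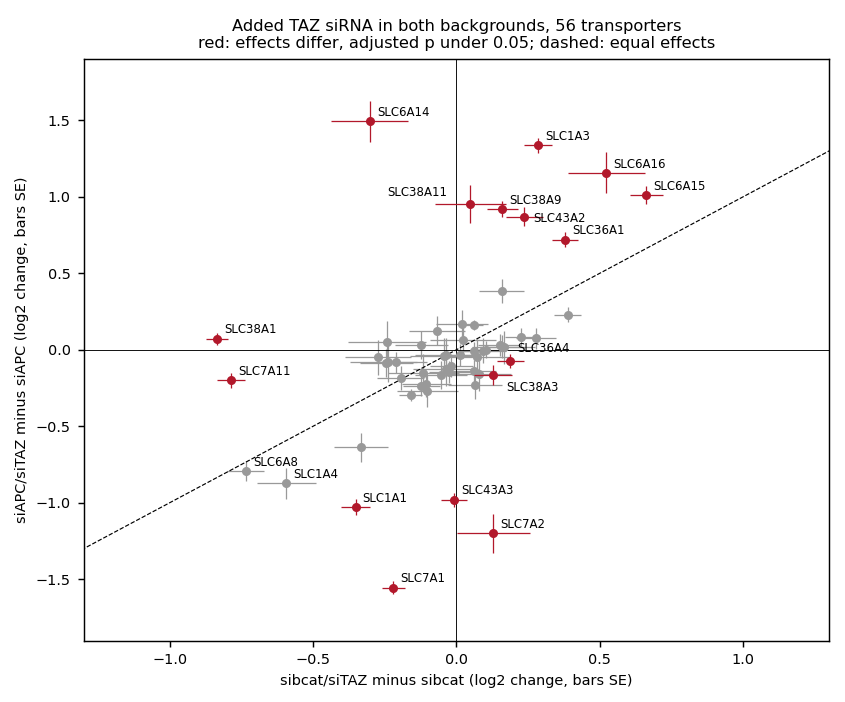
Log2 change with added TAZ siRNA in the sibcat background (horizontal axis) and in the siAPC background (vertical axis) for 56 members, with SE bars. Red points are the 16 members whose effects differ, and the dashed line marks equal effects: SLC6A8 and SLC1A4 lie near it, SLC7A1 and SLC43A3 far below it and SLC6A14 far above it.

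The TAZ siRNA effect differed between the backgrounds for 16 of 56 members, 10 with the more positive change in siAPC (17.9%) and 6 with the more positive change in sibcat (10.7%), beside 12.2% and 15.5% of all genes. The largest differences were in SLC6A14, SLC7A1, SLC7A2 and SLC1A3, each above 1 in size. For SLC6A14 both sibcat groups lay below the array medians, where a change is compressed, so its size is uncertain. The siAPC/siTAZ mean of SLC7A2, 4.82, also lay below them, and the same limit holds for its size. Of the 16, 13 had other probe sets, and at least 1 of these was called the same way for 8 of them. For SLC1A1, SLC36A1, SLC36A4, SLC43A2 and SLC7A2 none was. The TAZ siRNA comparison in siAPC held 7 members with a called change of at least 1 in size, and the one in sibcat held 0 of its 19 called members. Over all 19775 genes, 394 were called higher and 470 lower by at least 1 in siAPC, against 161 and 296 in sibcat. Changes of this size were thus also more frequent in siAPC over all genes. Of the 16, SLC7A11 and SLC38A1 had their larger called fall in the sibcat background. The siRNA targets differed in the same contrast, WWTR1 by -0.453, APC by -0.672 and CTNNB1 by 1.685, all called. WWTR1 thus fell more with TAZ siRNA in the siAPC background. The part of unequal depletion in the differences of the members was not tested.

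Set directly against sibcat cells, siAPC cells were higher for 14 members and lower for 9 (25.0% and 16.1%, beside 16.3% and 17.5% of all genes). The largest rises were in SLC36A1 (1.71), SLC6A14 (1.07), SLC1A3 (0.97), SLC6A16 (0.79) and SLC38A1 (0.60). The largest falls were in SLC6A15 (-1.07), SLC6A6 (-0.70), SLC38A9 (-0.66), SLC43A3 (-0.51) and SLC36A4 (-0.46). SLC3A2 (0.06) and SLC1A4 (0.19) were not called in this comparison, and SLC7A11 was 0.53 higher in siAPC cells. Other probe sets of SLC1A4 gave called differences of 0.237 and 0.215.

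Both combined depletions were also compared with siGFP cells, with which they share the control arrays of the single depletions. In siAPC/siTAZ cells 15 members rose and 11 fell (26.8% and 19.6%, beside 23.0% and 24.3% of all genes). SLC6A14 fell by 2.81, SLC6A8 by 1.52, SLC7A1 by 1.49 and SLC43A3 by 1.22, and SLC6A16 rose by 2.40, SLC1A3 by 1.41, SLC7A11 by 1.19 and SLC36A1 by 1.07. In sibcat/siTAZ cells 18 rose and 9 fell (32.1% and 16.1%, beside 25.4% and 19.5%). SLC6A14 fell by 5.68, SLC6A8 fell by 1.93 and SLC38A1 fell by 1.49, whereas SLC7A11, at a difference of 0.08, was not called unless sibcat/siTAZ array D was left out (0.13, adjusted p = 0.0271). SLC1A5 was 0.27 higher in sibcat/siTAZ than in siGFP cells and lost the call without siGFP array A (adjusted p = 0.05).

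Of the 56 members, 28 were low, with all 5 group means at or below the median gene, and 28 were not. The low members include the dopamine, serotonin and noradrenaline carriers SLC6A3, SLC6A4 and SLC6A2, the heavy chain SLC3A1 and its light chain SLC7A9, and the kidney and gut carriers SLC6A18, SLC6A19 and SLC6A20. SLC38A11 averaged 4.24 ± 0.28 in siAPC/siTAZ against 3.28 ± 0.07 in siAPC cells and rose by 0.96. The GABA carrier SLC6A11 fell with TAZ siRNA by 0.64 to 5.14 in siAPC/siTAZ, against 5.77 in siAPC cells, and by 0.33 to 5.01 in sibcat/siTAZ, against 5.34 in sibcat cells. None of its other probe sets was called in either comparison.

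Genes that work alongside the carriers were read from lists, and each list shares its single-depletion arrays between the comparisons. Over all genes 21.3% rose and 18.7% fell in siAPC, 21.4% and 15.7% in sibcat, 20.7% and 22.8% with TAZ siRNA in siAPC, and 18.0% and 13.7% with TAZ siRNA in sibcat. Of 25 measured genes of the ATF4 and amino acid response, 18 rose and 2 fell in siAPC and 19 rose and 2 fell in sibcat relative to siGFP cells, and TAZ siRNA lowered 20 in siAPC and 16 in sibcat and raised 2 in each. The rises were 72.0% and 76.0% of the list and the falls with TAZ siRNA 80.0% and 64.0%. Asparagine synthetase, ASNS, averaged 7.66 in siAPC/siTAZ against 10.91 in siAPC cells, 8.53 in sibcat/siTAZ against 10.56 in sibcat cells, and 8.59 in siGFP cells. The serine synthesis enzyme PHGDH rose by 1.08 in siAPC and 0.84 in sibcat relative to siGFP cells, and fell with TAZ siRNA by 1.33 in siAPC. Among 17 of 20 cytosolic aminoacyl-tRNA synthetases, 15 rose in siAPC and 13 in sibcat and none fell, while TAZ siRNA lowered all 17 in siAPC and 11 in sibcat and raised 1 in sibcat. Their rises were 88.2% and 76.5% of the list. GARS1, which charges tRNA with glycine, rose by 0.79 and 0.67, and fell with TAZ siRNA by 0.96 and 0.45 in the siAPC and sibcat backgrounds.

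Of 13 measured among 18 enzymes of glutamine and glutamate metabolism, 4 rose and 6 fell in siAPC, 5 rose and 3 fell in sibcat, and TAZ siRNA raised 3 and lowered 8 in siAPC and raised 2 and lowered 5 in sibcat. Glutamine synthetase, GLUL, fell by 0.73 in siAPC and 0.74 in sibcat cells, and GCLC, which makes the first bond of glutathione, fell with TAZ siRNA by 0.66 in siAPC and 0.65 in sibcat. For 14 genes of branched-chain amino acid catabolism, 4 rose and 3 fell in siAPC and 6 rose and 2 fell in sibcat, and TAZ siRNA raised 4 and lowered 7 in siAPC and raised 5 and lowered 4 in sibcat. In the 26 measured of 28 genes that sense amino acids upstream of mTORC1, 10 rose and 3 fell in siAPC, 9 rose and 3 fell in sibcat, and TAZ siRNA raised 8 and lowered 9 in siAPC and 6 and 6 in sibcat. The leucine sensor family members SESN1 and SESN3 rose with TAZ siRNA by 1.19 and 1.35 in siAPC and by 0.37 and 0.90 in sibcat, and the Rag GTPase gene RRAGD fell by 1.26 and 1.14. Outside the 7 families, 6 of 22 other amino acid carriers rose and 2 fell in siAPC, 5 rose and 4 fell in sibcat, and TAZ siRNA raised 3 and lowered 7 in siAPC and raised 3 and lowered 4 in sibcat.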

How the data were processed

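Total RNA of 20 MII samples was measured on 1 array each. The authors deposited log2 signal per probe set; RMA (background correction, quantile normalization, summary) is named in the submitters' processing notes, and the log2 scale was read from the values. Neither its version nor a build for the probe annotation is given in the sources used here. Of 54675 probe sets, 41097 carried 1 gene symbol, 1801 several and 11777 none, 41043 matched a RefSeq gene, and 62 were controls. For each gene the probe set with the highest mean was kept, with no filter on low values. Group means over all 20 arrays were fitted with limma 3.58.1 in R 4.3.3 (15 residual and 3.39 prior degrees of freedom, two-sided, Benjamini-Hochberg over 19775 genes), checked on simulated data; its median residual SD was 0.11. The number of arrays limits the precision. Genes were named by rule: called members with a log2 change of at least 1 in size, or the largest up to 5 in a direction, 8 fixed members, and up to 4 genes of a list. The members and lists were chosen with earlier results of these data known. No pair of arrays was identical. Same-letter residuals correlated at a median of 0.03, so letters were not treated as pairs. Alternatives were the probe set choice, a filter, the variance moderation, the arrays fitted, the normalization, the letters as a block and each array left out.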

Additional observations from a re-analysis of the deposited data

Results flagged for a closer look

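In 9 of 120 groups of 4 arrays, over 24 named members, 1 array lay apart from the other 3, where chance sets about 1 in 20 apart. SLC1A3 read 8.37 in sibcat/siTAZ array A (others 8.16 to 8.17) and 8.06 in sibcat array C (others 7.88 to 7.89). SLC3A2 read 9.49 in sibcat array D (others 9.20 to 9.23), SLC6A14 6.96 in siAPC/siTAZ array D (others 6.62 to 6.65) and SLC7A6 8.51 in siAPC/siTAZ array C (others 8.43 to 8.44). In sibcat/siTAZ, array A read 10.87 for SLC7A1 (others 10.79 to 10.80) and 6.57 for SLC7A2 (others 6.37 to 6.40), array B read 8.09 for SLC36A1 (others 8.14), and array C read 8.20 for SLC38A9 (others 8.30 to 8.32).

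The effect of TAZ siRNA differed between the siAPC and sibcat backgrounds by the interaction in the limma fit for 16 members. The difference, siAPC minus sibcat, was 1.80 for SLC6A14, 1.05 for SLC1A3, 0.91 for SLC38A1, 0.91 for SLC38A11, 0.76 for SLC38A9, 0.63 for SLC6A16, 0.63 for SLC43A2, 0.59 for SLC7A11, 0.35 for SLC6A15 and 0.34 for SLC36A1. It was -1.34 for SLC7A1, -1.33 for SLC7A2, -0.97 for SLC43A3, -0.68 for SLC1A1, -0.29 for SLC38A3 and -0.26 for SLC36A4. Both sibcat groups of SLC6A14 lay below the array medians. So did the siAPC/siTAZ group of SLC7A2, the sibcat group of SLC6A16 and all groups of SLC38A11 and SLC38A3. The other probe set of SLC43A2 gave 0.03, not called. For SLC38A3, a low member, the call was lost without siAPC/siTAZ array B or D or sibcat array B (adjusted p from 0.0513 to 0.0553). The siRNA targets also differed in this contrast, WWTR1 by -0.453, APC by -0.672 and CTNNB1 by 1.685, and their part was not tested.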

How the results depend on the processing

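The counts of members called stayed within 1.5 times under all 7 alternative settings and under the omission of each array. With the letters as a replicate block, 25 members were called in siAPC and 25 in sibcat against siGFP, 25 in siAPC/siTAZ against siAPC and 21 in sibcat/siTAZ against sibcat; as reported the counts were 24, 23, 23 and 19. The letters did not pair the arrays: 8 of 40 same-letter correlations were over 0.1, and 7 of 20 arrays matched best under their own letter. Of 125 results on named members, 12 changed their call under some setting with all arrays kept and 9 with 1 array left out. The mean of all probe sets reversed SLC7A1, to -0.091 in siAPC against siGFP (adjusted p = 0.0497) and -0.090 in sibcat/siTAZ against siGFP (adjusted p = 0.0486), where 0.068 and 0.095 were reported without a call. Other settings called SLC7A1 higher in sibcat/siTAZ than in siGFP. The 0.095 was called with low genes left out (adjusted p = 0.0294) and with the other variance moderation (adjusted p = 0.0275). Without siGFP array D it was 0.126 and called (adjusted p = 0.0189). With all arrays kept, SLC38A2, SLC1A5, SLC7A5, SLC38A1 and SLC38A3 lost or gained calls at adjusted p from 0.0106 to 0.157, and with 1 array left out SLC7A5 gained one at 0.00643, and the cause was not tested. A repeated quantile normalization moved the median of all genes by at most 0.004.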
